A study of Mus musculus with 2 samples.

Results

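Migratory dendritic cells (DCs) were examined among leukocytes of early *Braf* V600E melanomas by single-cell RNA sequencing. A cell was counted as a migratory DC when it held at least 1 unique molecular identifier (UMI, a distinct captured transcript) of *Ccr7*, at least 1 UMI in 3 or more of the 8 genes *Fscn1*, *Ccl22*, *Il4i1*, *Cacnb3*, *Apol7c*, *Slco5a1*, *Tbc1d4* and *Socs2*, and 0 UMIs of *Fcgr1*, a macrophage receptor, and of *Cd3e*, a T cell receptor subunit. Cells were first required to hold 500 to 15000 UMIs, between 200 and 4000 genes and no more than 10% of mitochondrial UMIs. Of the 9798 cells left, 115 met the rule, 65 in the control library and 50 in the NK cell-depleted library. The levels of the 9 genes of the rule chose the cells and are given below as a description only.

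Both groups were Ptgs-/- tumors, that is, grown from melanoma cells made deficient for both COX enzymes by genome editing, in C57BL/6 hosts labelled as 8 weeks old, and live CD45+ cells (leukocytes) were sorted on day 4 after tumor cell injection. Control hosts were untreated, and NK cell-depleted hosts received 200 µg of anti-NK1.1 (clone PK136) and 30 µg of anti-asialo GM1 on days 0 and 2. Each group gave 1 library from its pooled tumors, and parental melanoma cells were spiked into both samples. The genotype label of both samples names wild-type tumor cells, whereas their titles and the series design name the knockout. With 1 library per group there was no replicate check and no test was possible, so all differences describe this pair of libraries, and the 95% intervals cover counting error only. The libraries held 24810009 and 23245982 UMIs in 5292 and 4506 cells that passed the filter. Natural killer (NK) cells, taken as cells with at least 3 of 10 NK cell markers and no *Cd3e*, numbered 572 in control and 0 after depletion, which allows a share of up to 0.0666%. Of the barcodes that passed, 5 occurred in both libraries, and 0 of them belonged to migratory DCs of both.

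Conventional DCs sample antigen in tissues, and after activation they raise CCR7, a chemokine receptor that steers them along CCL19 and CCL21 gradients through lymphatics to the draining lymph node. There they present antigen to T cells together with costimulatory ligands and cytokines such as IL-12. This mature state also carries regulatory molecules such as PD-L1 and the amino acid oxidase IL4I1, and it can be entered from either lineage of conventional DCs, cDC1 (cross-presenting cells that depend on *Batf3* and *Irf8*) and cDC2. Transcription factors of the NF-kB family drive much of the maturation program.

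Promoters of 4 genes whose values are described below are shown first, from the RefSeq annotation of build GRCm38.p6, each from 250 bases before to 50 bases after the annotated start, 5′ to 3′ on the gene's strand. *Ccl22* and *Ccl17* encode the ligands of CCR4 and lie on the same strand of chromosome 8, and they are shown because *Ccl22* belongs to the rule and *Ccl17* differed between the libraries. *Nfkbia* (the NF-kB inhibitor IkBα) and *Dusp1* (a phosphatase that switches off MAP kinases) stand for the NF-kB and immediate early lists. Capitals mark a match of the κB consensus in *Nfkbia* and of the cAMP response element TGACGTCA in *Dusp1*, both searched on both strands.
Ccl22, chr8:94745434-94745733, plus strand: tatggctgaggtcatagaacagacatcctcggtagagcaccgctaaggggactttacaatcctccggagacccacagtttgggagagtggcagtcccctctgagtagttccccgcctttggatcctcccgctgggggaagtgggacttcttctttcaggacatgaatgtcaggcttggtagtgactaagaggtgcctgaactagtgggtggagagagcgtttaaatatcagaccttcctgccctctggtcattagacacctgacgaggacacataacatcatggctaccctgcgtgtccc
Ccl17, chr8:94810203-94810502, plus strand: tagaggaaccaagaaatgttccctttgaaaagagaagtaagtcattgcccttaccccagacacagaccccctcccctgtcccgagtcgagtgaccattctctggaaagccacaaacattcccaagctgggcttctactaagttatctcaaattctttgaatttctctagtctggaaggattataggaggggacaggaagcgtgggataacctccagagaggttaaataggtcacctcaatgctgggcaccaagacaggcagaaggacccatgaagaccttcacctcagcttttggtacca
Nfkbia, chr12:55492598-55492897, minus strand: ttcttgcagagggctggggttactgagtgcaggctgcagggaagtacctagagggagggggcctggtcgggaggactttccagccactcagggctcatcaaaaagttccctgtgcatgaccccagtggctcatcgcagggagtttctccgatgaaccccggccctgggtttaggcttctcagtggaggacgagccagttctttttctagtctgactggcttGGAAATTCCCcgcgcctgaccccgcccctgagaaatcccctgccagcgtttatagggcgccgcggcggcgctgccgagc
Dusp1, chr17:26508423-26508722, minus strand: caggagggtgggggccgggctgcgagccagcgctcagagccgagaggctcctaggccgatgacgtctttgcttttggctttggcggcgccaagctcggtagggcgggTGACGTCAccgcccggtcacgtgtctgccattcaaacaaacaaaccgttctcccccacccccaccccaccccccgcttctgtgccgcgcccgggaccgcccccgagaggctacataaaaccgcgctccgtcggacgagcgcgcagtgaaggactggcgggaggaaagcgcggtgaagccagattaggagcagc

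The κB consensus was found in 8.18% of 27025 promoters of this length (1 per gene) and in 12.2% of the promoters of genes measured in migratory DCs. It was found in 8 of the 13 matched promoters of the NF-kB list and in 7 of the 17 of the immediate early and heat shock list. The cAMP response element was found in 1.88% of all promoters and in 1 of the 17, that of *Dusp1*. Neither motif was found in the windows of *Ccl22* and *Ccl17*, and of the 9 rule genes 6 had a promoter in the table, of which only that of *Fscn1* held the cAMP response element.

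Migratory DCs were about as frequent in both libraries. They made up 1.23% (0.949 to 1.56) of control cells and 1.11% (0.825 to 1.46) of the cells after NK cell depletion. The ratio of these shares was 1.11 (0.754 to 1.63). With NK cells left out of the denominator the ratio was 1.24 (0.845 to 1.83). The other DCs were fewer in control. Cells with at least 3 of 8 cDC1 genes and without *Ccr7* (cDC1 cells) numbered 71 and 105, and cells with *Flt3* and at least 2 of 5 cDC2 genes and without *Ccr7* (cDC2 cells) numbered 63 and 111. Migratory DCs were therefore 33.5% (26.9 to 40.6) of these 3 sets together among control cells and 19.5% (14.9 to 24.9) after depletion, a ratio of 1.72 (1.17 to 2.53), counting cells that met both conventional DC definitions once. The ratio for cDC1 cells was 0.576 (0.420 to 0.786) and that for cDC2 cells 0.483 (0.349 to 0.664).

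The rule was narrower than *Ccr7* alone. *Ccr7* had a UMI in 219 control and 212 NK cell-depleted cells, of which 32 and 59 held *Cd3e*, and 29 and 22 held *Fcgr1*. A further 95 and 83 held fewer than 3 of the 8 listed genes, among them 40 and 28 with at least 2 B cell markers. The 7 and 7 cells just inside the threshold (3 genes) and the 7 and 6 just outside it (2 genes) differed in the level of *Ccr7*, which was 1699 against 1079 CPM (UMIs per 1000000 UMIs of the summed cells) in control and 3300 against 275 CPM after depletion. *Tmem123*, a mature DC gene outside the rule, was at 378 against 176 CPM and at 1404 against 147 CPM. Other mature DC genes were not all higher inside the threshold. *Traf1*, a signaling adaptor of TNF receptors, was at 566 against 778 CPM in control and at 1330 against 238 CPM after depletion. *Ccl17* was at 1699 against 1632 CPM and at 98.5 against 495 CPM.

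**Figure D1:**
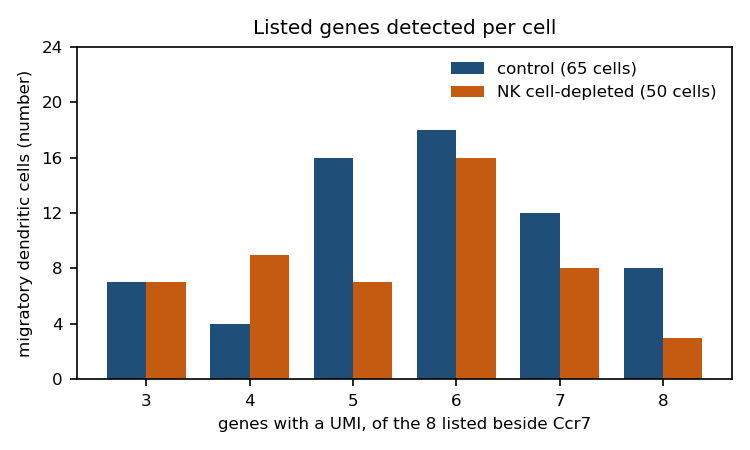
Number of migratory DCs (vertical axis) by how many of the 8 listed genes had a UMI (horizontal axis), in the control and NK cell-depleted libraries. The most frequent number was 6 of 8 in both, in 18 control and 16 NK cell-depleted cells, and 7 cells of each library sat at the threshold of 3.

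Genes of the rule chose the cells, so their levels do not test the label. *Fscn1*, an actin-bundling protein of DC processes, was found in 54 of 65 and 39 of 50 cells, at 1702 (1575 to 1837) and 1687 (1539 to 1846) CPM. *Ccl22* was at 3243 (3066 to 3427) and 3318 (3108 to 3538) CPM, and *Il4i1* at 1004 (907 to 1109) and 1015 (900 to 1139) CPM. These levels differed little between the libraries, while *Ccr7* itself was lower in control, at 3966 (3771 to 4170) against 5660 (5385 to 5945) CPM, with medians of 20 and 29 UMIs per cell. *Cacnb3*, a calcium channel subunit, showed the same direction, at 379 (320 to 445) against 541 (458 to 634) CPM, and *Tbc1d4*, a Rab GTPase regulator, did too, at 1705 (1578 to 1840) against 2236 (2064 to 2417) CPM. *Apol7c*, an apolipoprotein L family member, went the other way, at 185 (145 to 234) against 117 (80.9 to 165) CPM, and was found in only 14 of 65 and 8 of 50 cells. *Slco5a1*, a member of the organic anion transporter family, was found in 32 and 24 cells, and *Socs2*, a suppressor of cytokine signaling, in 56 and 39 cells. Of 26 mature DC genes outside the rule, all had UMIs in both libraries, and every migratory DC held at least 3 of them, with 17 to 211 UMIs per control cell and 12 to 210 per NK cell-depleted cell. Together they were at 14797 and 16151 CPM in migratory DCs and at 2199 and 2391 CPM in all cells that passed the filter.

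Some markers of other cells were at 0, while several marker lists had UMIs in many migratory DCs of both libraries. The T cell receptor genes *Cd3d*, *Cd3g*, *Trac*, *Trbc1* and *Trbc2*, the B cell gene *Cd79a*, the macrophage gene *Mertk* and all 5 mast cell and basophil markers were at 0 in both libraries. The T cell list had 125 and 89 UMIs in 43 and 31 cells, of which *Il7r*, the IL-7 receptor, made up 113 and 87. This list was at 322 and 317 CPM, against 304 and 186 CPM in all cells that passed the filter. Neutrophil markers had 109 and 2 UMIs in the control and depleted libraries, with 93 of the 109 in 1 cell. NK cell markers had 88 and 56 UMIs, or 227 and 199 CPM, against 743 and 37.2 CPM in all cells that passed the filter. Of the 88, 50 were in 1 cell, and all 56 were *Klrk1* (NKG2D), which 21 of 65 and 25 of 50 migratory DCs held. Macrophage markers had 170 and 51 UMIs in 39 and 20 cells, with up to 89 and 20 in a cell. That list was at 438 and 182 CPM, against 11171 and 10877 CPM in all cells that passed the filter. Markers of plasmacytoid DCs had 73 and 58 UMIs in 28 and 29 cells, or 188 and 206 CPM, against 244 and 239 CPM in all cells that passed. In all, 8 control and 2 NK cell-depleted migratory DCs held 2 or more markers of a T, NK, B cell, neutrophil, eosinophil or melanoma list or 5 or more macrophage markers, and results that rest on them are given with that share. The part of these cells in the results was not tested beyond leaving them out.

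Levels in migratory DCs were set against those in the other DCs of the same library. Of 857 genes with at least 100 UMIs in migratory DCs, 171 were at least 2-fold higher in migratory DCs than in cDC1 and cDC2 cells of both libraries, 86 of them at least 4-fold, and 23 were at least 2-fold lower. The minimum applied to migratory DCs only, which leaves out genes low in them. The counts of higher and lower genes are therefore not compared. Since the cells were chosen by genes of the same cells, these values are a description. The cell sets had medians of 5861 (migratory), 6578 (cDC1) and 5369 (cDC2) UMIs per cell in control and of 5178.5, 7376 and 6201 in the NK cell-depleted library.

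The chemokine *Ccl5*, made also by NK and T cells, led the ranking. It was at 4121 and 2613 CPM in migratory DCs of the control and NK cell-depleted libraries, at 7.90 and 2.56 CPM in cDC1 cells, and at 53.0 and 0 CPM in cDC2 cells. *Il12b*, the p40 subunit shared by IL-12 and IL-23, was at 294 and 449 CPM, against 0 and 1 UMI in cDC1 cells and 1 and 0 UMIs in cDC2 cells. It was at least 49.6-fold higher than in control cDC1 cells and at least 107-fold higher than in NK cell-depleted cDC2 cells, taking 3 UMIs for each 0. *Il2ra*, the high-affinity subunit of the IL-2 receptor, was at 201 and 239 CPM with 0 UMIs in 3 of the 4 other DC sets, which made it at least 33.9-fold higher than in control cDC1 cells and at least 62.0-fold higher than in those after depletion.

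*Serpinb9*, the inhibitor of granzyme B, was at 412 and 495 CPM in migratory DCs and between 5.13 and 13.8 CPM in the other DCs, and the related *Serpinb6b* was at 659 and 570 CPM against 1.28 to 7.90 CPM. *Cd200*, an inhibitory ligand, was at 139 and 235 CPM against 0 to 7.69 CPM, and *Adora2a*, an adenosine receptor, was at 152 and 260 CPM against 1.97 to 6.41 CPM. *Tnfrsf9* (4-1BB), *Adcy6* (an adenylyl cyclase), *Anxa3*, *Slc4a8*, *Ankrd33b*, *Zmynd15*, *Eno3* and *H2-Eb2*, a paralog of *H2-Eb1* with which reads could be shared, completed the 15 highest. Reads of the *Serpinb* genes may also be shared within that family.

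**Figure D2:**
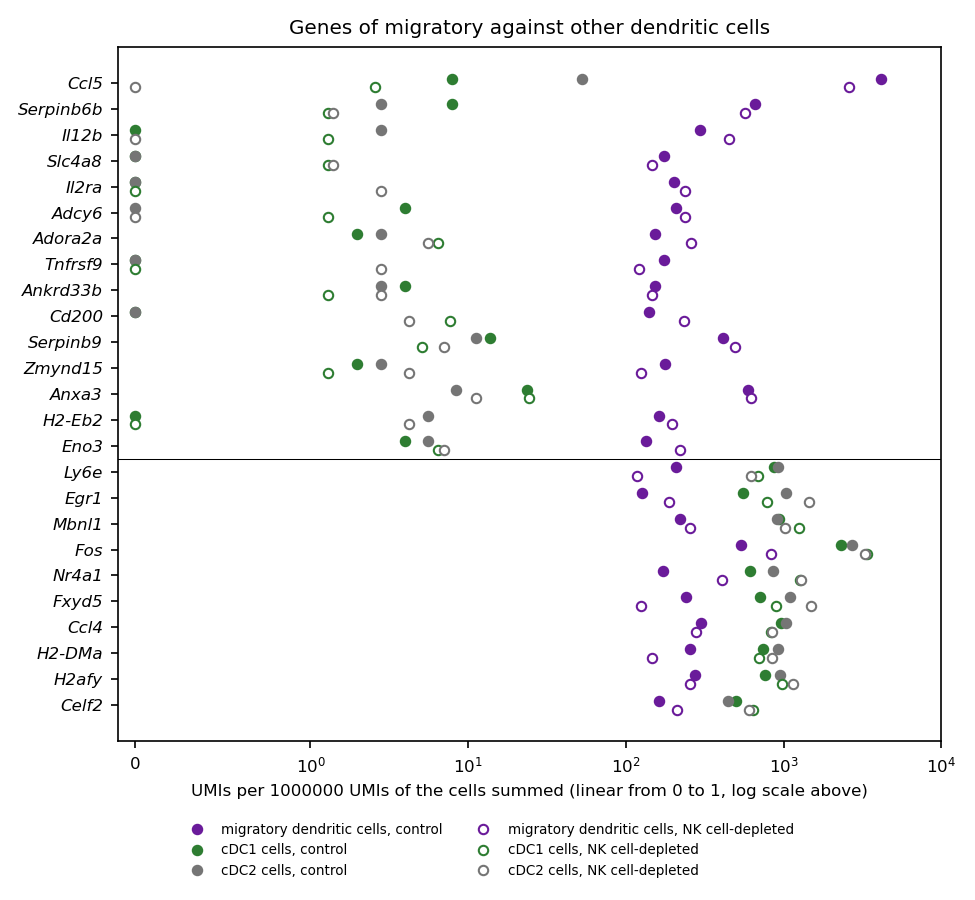
Level (horizontal axis, UMIs per 1000000 UMIs of the summed cells, linear from 0 to 1 and logarithmic above) of the 15 genes highest (above the line) and 10 lowest (below it) in migratory DCs relative to cDC1 and cDC2 cells. Only genes with at least 100 UMIs in migratory DCs were ranked, so genes under that minimum could not enter. Filled symbols are control and open symbols NK cell-depleted libraries. All values of migratory DCs lie to the right of the other DCs above the line, with *Ccl5* at 4121 and 2613, and to the left of them below it.

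*Fos* was at 536 and 833 CPM in migratory DCs and between 2320 and 3394 CPM in the other DCs, and *Egr1* was at 126 and 189 CPM against 549 to 1439 CPM. *H2-DMa*, a chaperone that loads peptide onto MHC class II, was at 255 and 146 CPM against 700 to 925 CPM. Its partner *H2-DMb1*, not in the ranking, was at 92.7 and 110 CPM against 725 to 962 CPM. Outside this ranking, the MHC class II chains themselves were closer, with *H2-Aa* at 4716 and 5528 CPM against 6167 to 9031 CPM. *Ccr2*, the receptor of monocyte attractants, was at 87.6 and 78.3 CPM against 1034 to 1164 CPM. *Ly6e*, *Mbnl1*, *Nr4a1*, *Fxyd5*, *Ccl4*, *H2afy* and *Celf2* were the other genes among the 10 lowest. These are the lowest only among genes with at least 100 UMIs in migratory DCs.

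Genes of the cDC1 and cDC2 definitions were found in a minority of migratory DCs. Of the 65 control and 50 NK cell-depleted cells, 16 and 15 held at least 1 of the 8 cDC1 genes, 10 and 5 held at least 1 of the 5 cDC2 genes, 5 and 4 held both, and 44 and 34 held neither. Wider lists of 12 genes each were found in more cells. The cDC1 list, which includes *Batf3* and *Irf8*, had a UMI in 62 and 41 cells, and 43 and 20 held at least 2 of its genes. The cDC2 list had a UMI in 47 and 34 cells. It was at 914 and 876 CPM, below the 4199 and 4579 CPM of all cells that passed the filter. The cDC1 list was at 1599 and 908 CPM, against 1042 and 1042 CPM in all cells that passed. *Xcr1*, a cDC1 chemokine receptor, had 3 and 0 UMIs in migratory DCs against 116 and 143 in cDC1 cells. Of the cDC1 list 3 genes were measured, 2 were higher in control, *Batf3* and *Irf8*, and the median log2 ratio of control over NK cell-depleted was 0.80. *Irf8* had 454 and 188 UMIs, or 1169 and 669 CPM, a log2 ratio of 0.80 (0.56 to 1.06), with UMIs in 54 of 65 and 29 of 50 cells. *Batf3* had 88 and 33 UMIs, a log2 ratio of 0.93 (0.36 to 1.57). Among *Cd3e* cells 13.2% and 11.2% held *Irf8*. In cDC1 cells *Irf8* was lower in control, at 1337 and 1632 CPM. *Irf4*, a factor of cDC2 cells and of DC migration, was lower in control, with 16 and 30 UMIs and a log2 ratio of -1.35 (-2.35 to -0.45). *Mgl2*, a cDC2 lectin, was in few cells, 7 and 4, of which 5 and 3 also held *Ccl17*.

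Between the libraries, 1986 genes had at least 50 UMIs in migratory DCs and were measured. The median log2 ratio of control over NK cell-depleted was -0.04. Of them, 35 genes (1.76%) were at least 2-fold higher in control and 42 (2.11%) at least 2-fold lower, 3.88% in either direction. The interval lay above 0 for 215 genes (10.8%) and below 0 for 273 (13.7%), and these shares are the background for the lists below. Within lists, "higher" and "lower" name genes whose interval excludes 0. Lists with at least 5 measured genes are drawn in the plot of gene lists. In a pooled tissue, more transcripts per cell and more cells of a subset cannot be told apart where few cells carry a gene. The number of cells with a UMI is given beside some of these values. Values without it are not to be read as spread over most cells.

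**Figure D3:**
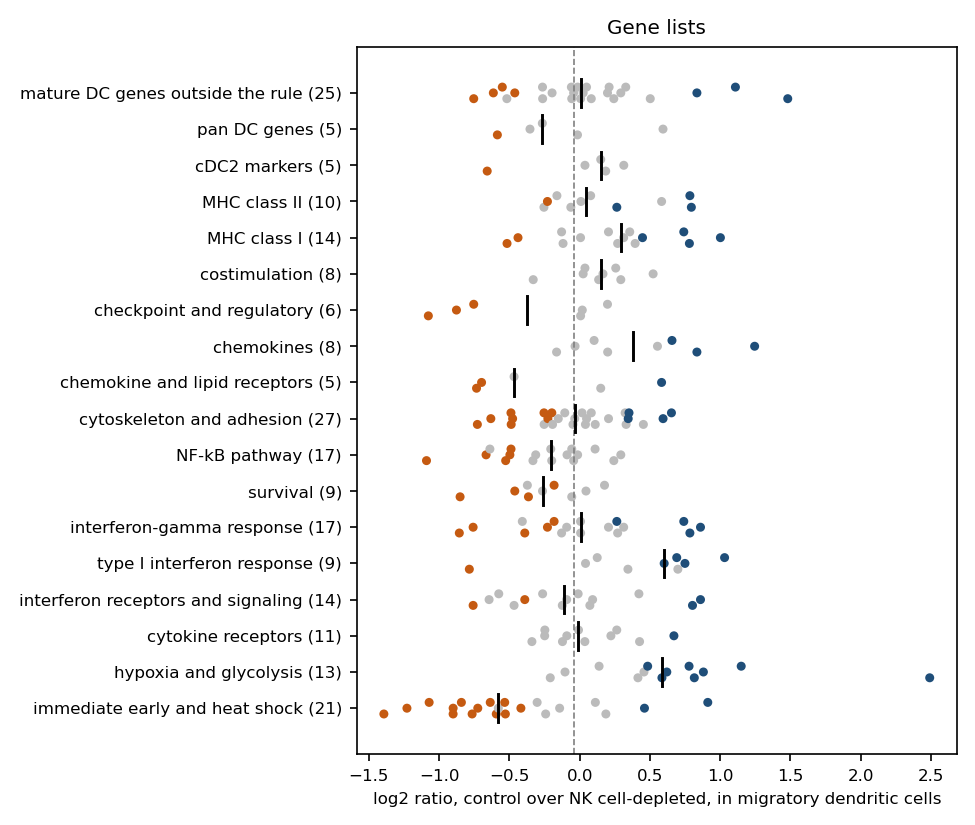
Log2 ratio of control over NK cell-depleted (horizontal axis) of each gene with at least 50 UMIs in migratory DCs, by gene list (at least 5 measured genes, their number in parentheses). Blue and orange points have a counting interval above and below 0, grey points include it, black bars are list medians and the dashed line is the median of all measured genes at -0.04. The hypoxia and glycolysis list (median 0.59) lies to the right and the immediate early and heat shock list (median -0.58) to the left.

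Of the chemokines, 3 of 8 measured genes were higher in control and 0 lower, with a list median of 0.38. *Ccl17*, which attracts CCR4-bearing T cells, had 464 and 188 UMIs, or 1195 and 669 CPM, a log2 ratio of 0.83 (0.59 to 1.09). It was concentrated in a subset. It was found in 25 of 65 control cells, or 38.5% (26.7 to 51.4), and in 11 of 50 NK cell-depleted cells, or 22% (11.5 to 36.0). After thinning to 2000 UMIs per cell these shares were 27.4% of 62 and 15.2% of 46 cells. *Cd3e* cells, which should lack it, held it in 0.575% of 174 control cells at a median of 2337 UMIs and in 0 of 125 NK cell-depleted cells at a median of 2651 UMIs, which allows up to 2.4%. *Ccl22*, the other CCR4 ligand and part of the rule, had 1259 and 932 UMIs and a log2 ratio of -0.03 (-0.16 to 0.09), and 24 of 25 control and 11 of 11 NK cell-depleted *Ccl17* cells held it.

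*Ccl5* had 1600 and 734 UMIs, a log2 ratio of 0.66 (0.53 to 0.79). It was present in 44 of 65 and 38 of 50 cells, with medians of 11 and 6.5 UMIs per cell. NK cells held 74.5% of the *Ccl5* UMIs of the control library, and outside migratory DCs it was at 346 and 21.8 CPM, while *Cd3e* cells held it in 22.4% and 4%. In migratory DCs of the NK cell-depleted library, where no NK cells were found, *Ccl5* was at 2613 CPM. The part of RNA from NK cells in the control value was not tested. Genes with over 50% of their control library UMIs in NK cells were set apart. Besides *Ccl5*, those that differed were *AW112010*, with 279 and 106 UMIs (log2 ratio 0.93), *Car2*, with 21 and 41 (-1.42), and *Klrk1*, with 39 and 56 (-0.98). In the NK cell-depleted library *AW112010*, *Car2* and *Klrk1* were at 377, 146 and 199 CPM in migratory DCs. Outside migratory DCs of that library they were at 36.4, 0.653 and 31.3 CPM.

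The CXCR3 ligands were found in few migratory DCs. *Cxcl9* had 32 UMIs in 3 control cells and 11 in 1 NK cell-depleted cell, and 22 and 11 of them lay in the cells with markers of other cells. *Cxcl10* had 13 UMIs in 7 cells and 20 in 4 cells, with 65% of the 20 in 1 cell. Among *Cd3e* cells 2.30% and 0.8% held *Cxcl9*, and 8.62% and 5.6% held *Cxcl10*, against 10.8% (4.44 to 20.9) and 8% (2.22 to 19.2) of migratory DCs, so the share with *Cxcl10* is not read as expression. *Cxcl16*, a ligand of CXCR6 on T cells and NKT cells, was by contrast in 60 of 65 and 47 of 50 cells (7.47% and 3.2% of *Cd3e* cells), at 925 and 1036 CPM, a log2 ratio of -0.16 (-0.39 to 0.06). Its level in migratory DCs was 5.77 to 14.9 times that of the other DCs. *Cxcl2*, a neutrophil attractant, was higher in control with 47 and 14 UMIs, in 8 and 4 cells. Of its 47 UMIs 35 lay in cells with other markers, and without these cells its log2 ratio was -0.48.

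Of the cytokines, 3 were measured, of which 0 were higher and 1 lower in control, with a median of -0.28. *Il12b* had 114 UMIs in 22 control cells and 126 in 12 NK cell-depleted cells. Its log2 ratio of -0.61 (-0.99 to -0.23) rested on 1 cell that held 56.3% of the NK cell-depleted UMIs, and without the cell of most UMIs in each library it was 0.0239. That cell was 1 of the 7 at the threshold of 3 listed genes. *Cd3e* cells held *Il12b* in 0 of 174 and 0 of 125 cells, which allows up to 1.72% and 2.4%. *Ccl17* was held by 6 of 22 control and 4 of 12 NK cell-depleted *Il12b* cells, or 27.3% and 33.3%, against 44.2% and 18.4% of the migratory DCs without *Il12b*. *Il1b* had 276 and 220 UMIs (-0.14, -0.40 to 0.12), and *Ebi3*, shared by IL-27 and IL-35, had 33 and 29. *Il15*, the NK cell survival factor, fell under the minimum of 50 UMIs, with 31 and 12 in 20 and 12 cells (0.87, -0.10 to 2.00).

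**Figure D4:**
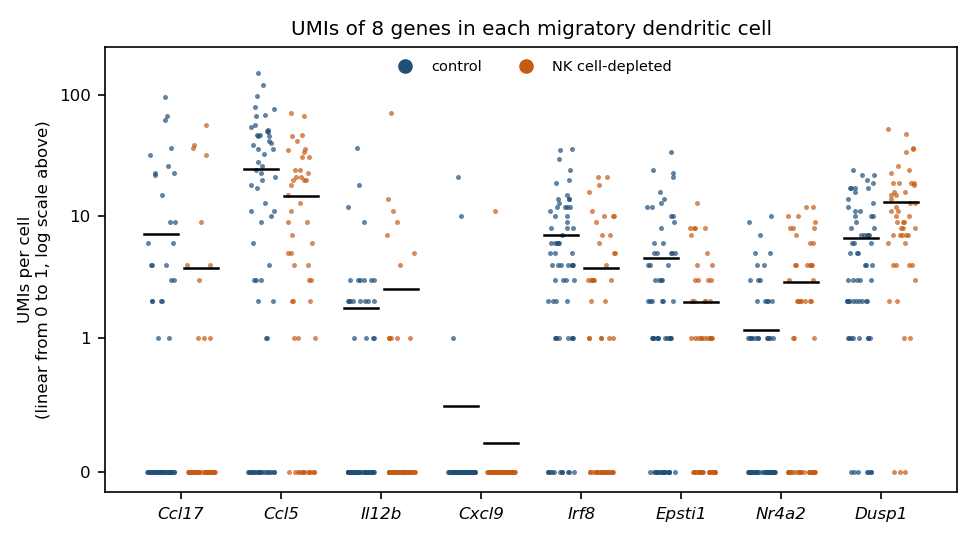
UMIs per cell (vertical axis, linear from 0 to 1 and logarithmic above) of 8 genes in each of the 65 control and 50 NK cell-depleted migratory DCs, with horizontal bars at the mean. *Ccl5*, *Irf8* and *Dusp1* were spread over most cells, *Ccl17* over 25 and 11 cells, and *Cxcl9* lay in 3 and 1 cells.

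Costimulation did not differ beyond counting error. All 8 measured genes had an interval that included 0, with a list median of 0.15. *Cd80*, *Cd86* and *Cd40* had log2 ratios of 0.13 (-0.44 to 0.74), -0.33 (-0.91 to 0.25) and 0.29 (-0.17 to 0.77). The intervals are wide, so equality is not shown. Of 6 measured checkpoint and regulatory genes, 0 were higher and 3 lower in control, with a median of -0.37. *Cd274* (PD-L1) was at 247 and 246 CPM. *Cd200* had 54 and 66 UMIs and a log2 ratio of -0.75 (-1.30 to -0.22). *Pvr*, a ligand of DNAM-1 and TIGIT, had 36 and 48 (-0.88, -1.55 to -0.23). *Aldh1a2*, which makes retinoic acid, had 28 and 43 (-1.08, -1.83 to -0.37), in 13 and 16 cells.

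Of the chemokine and lipid receptors, 1 of 5 was higher and 2 were lower in control, with a median of -0.47. *Ptger4*, which encodes EP4, a receptor of prostaglandin E2, was at 325 and 527 CPM, a log2 ratio of -0.70 (-1.05 to -0.35), in 40 of 65 and 36 of 50 cells (18.4% and 28.8% of *Cd3e* cells). *Cxcr4* was at 227 and 377 CPM (-0.73, -1.16 to -0.31). *Gpr183*, the oxysterol receptor that positions DCs in lymphoid tissue, was higher at 417 and 278 CPM (0.58, 0.19 to 0.996). *Cd3e* cells held *Cxcr4* in 45.4% and 45.6%, so a share of cells with it is not read. Of the enzymes of the prostaglandin and leukotriene list, *Ptgs2* had 91 and 49 UMIs (0.42, -0.09 to 0.96) and *Ptges3* 51 and 33 (0.15, -0.50 to 0.84), and the list had 3 measured genes, of which *Ptger4* alone had an interval without 0.

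Antigen presentation was mixed. In MHC class II, 3 of 10 genes were higher and 1 lower, with a median of 0.04. *Ciita*, the class II master regulator, had 84 and 35 UMIs (0.78, 0.21 to 1.41), *H2-DMa* 99 and 41 (0.79, 0.27 to 1.37) and *Cd74* 2950 and 1777 (0.26, 0.18 to 0.35), while *H2-Aa* had 1831 and 1553 (-0.23, -0.33 to -0.13). In MHC class I, 4 of 14 were higher and 2 lower, with a median of 0.29. The higher genes served peptide supply and folding. The proteasome activator subunits *Psme1* and *Psme2* had log2 ratios of 0.45 (0.15 to 0.75) and 0.78 (0.50 to 1.07), the immunoproteasome subunit *Psmb9* 0.74 (0.29 to 1.23), and the chaperone *Calr* 1.001 (0.54 to 1.50). The lower genes were the heavy chain *H2-K1* at -0.52 (-0.64 to -0.39) and *B2m* at -0.44 (-0.55 to -0.33). *H2-K1* shares sequence with other class I genes.

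Interferon-responsive genes did not move as a block. Of 17 measured genes of the interferon-γ list, 4 were higher and 5 lower, with a median of 0.01. *Irf1*, *Ciita*, *Psmb9* and *Cd74* were higher, *Irf1* at 76 and 30 UMIs (0.86, 0.25 to 1.54). Among the lower genes, *Stat3* had 138 and 169 UMIs (-0.76, -1.09 to -0.43) and *Gbp2* 64 and 84 (-0.86, -1.35 to -0.37), and *H2-Aa* and *Pim1* were also lower. *Gbp2* UMIs were concentrated, with 29.8% in 1 NK cell-depleted cell. Of 9 type I interferon genes, 4 were higher and 1 lower, with a median of 0.60. *Isg15* had 80 UMIs in 19 cells and 28 in 9 cells (1.03, 0.41 to 1.72), *Rsad2* 75 and 32 (0.75, 0.15 to 1.41), *Ifitm3* 162 and 77 (0.60, 0.21 to 1.02) and *Bst2* 72 and 32 (0.69, 0.08 to 1.35), while *Mx1* had 40 and 50 (-0.79, -1.43 to -0.16). The median of this list was also above 0 in cDC1 cells (0.46) and cDC2 cells (0.74), and it was 0.03 in the rest of the library. These medians take the genes measured in migratory DCs, also where the other sets held few UMIs. A gene with 0 UMIs in both libraries has a log2 ratio of 0.62 in cDC1 and 0.99 in cDC2 cells. The part of genes with few UMIs in these medians was not tested. *Epsti1*, an interferon-inducible gene placed in the mature DC list, was at 755 and 349 CPM, a log2 ratio of 1.11 (0.78 to 1.46), in 47 of 65 and 29 of 50 cells, while 37.9% and 27.2% of *Cd3e* cells held it. Receptors and signaling genes had 2 of 14 higher, *Irf1* and *Irf8*, and 2 lower, with a median of -0.11.

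The NF-kB pathway was flat or lower in control. Of 17 genes, 0 were higher and 5 lower, with a median of -0.21. *Nfkbiz*, an atypical IkB protein, had 105 and 162 UMIs (-1.09, -1.46 to -0.73). *Nfkbia*, whose promoter window is printed above, had 449 and 468 (-0.53, -0.72 to -0.34), and *Rel* had 383 and 391 (-0.50, -0.70 to -0.29). *Relb* and *Nfkb2*, the pair of the alternative pathway, had log2 ratios of -0.04 (-0.36 to 0.28) and 0.24 (-0.26 to 0.77). The list was also below 0 in cDC1 cells (-0.25), in cDC2 cells (-0.33) and in the rest of the library (-0.37). Of 9 survival genes, 0 were higher and 4 lower, with a median of -0.26, among them *Birc2* at -0.36 (-0.66 to -0.07) and *Gadd45b* at -0.46 (-0.70 to -0.22).

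Immediate early and heat shock genes were lower in control. Of 21 measured genes, 13 were lower and 2 higher, with a median of -0.58. *Dusp1* had 430 and 654 UMIs, or 1107 and 2328 CPM (-1.07, -1.25 to -0.89), in 58 of 65 and 47 of 50 cells. *Zfp36*, which destabilizes cytokine mRNAs, was at 1203 and 2246 CPM (-0.90, -1.08 to -0.73). The orphan nuclear receptors *Nr4a1*, *Nr4a2* and *Nr4a3* had log2 ratios of -1.23 (-1.69 to -0.79), -1.39 (-1.82 to -0.98) and -0.73 (-0.93 to -0.52). *Jun*, at 0.46 (0.10 to 0.83), and *Ier3*, at 0.91 (0.10 to 1.84), were the higher genes, and *Ier3* was at -0.00273 without the cells with other markers. *Hspa1a* and *Hspa1b*, nearly identical genes whose reads cannot be told apart with certainty, had log2 ratios of -0.24 (-0.59 to 0.11) and -0.42 (-0.70 to -0.13). Medians of this list were also below 0 in cDC1 cells (-0.31), cDC2 cells (-0.40) and the rest of the library (-0.33). Genes of this kind respond to tissue dissociation, and its part in the difference between the libraries was not tested.

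Hypoxia and glycolysis genes were higher in control. Of 13 measured genes, 8 were higher and 0 lower, with a median of 0.59. *Eno1* had 50 UMIs in 23 cells and 6 UMIs in 5 cells, a log2 ratio of 2.49 (1.37 to 4.11). *Ldha*, *Gapdh* and *Aldoa*, enzymes of glycolysis like *Eno1*, were at 358 and 160, at 1221 and 662, and at 435 and 253 CPM, with log2 ratios of 1.15 (0.67 to 1.68), 0.88 (0.64 to 1.14) and 0.78 (0.38 to 1.21). *Pgam1*, *Mif*, *Tpi1* and *Pgk1* were the other higher genes. *Ndrg1*, a hypoxia gene, did not follow (-0.21, -0.70 to 0.29). The median of the list was 0.21 in cDC1 cells, -0.16 in cDC2 cells and 0.34 in the rest of the library.

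Cytoskeleton and adhesion genes had 4 of 27 higher and 8 lower, with a median of -0.04. *Tmsb4x*, an actin-sequestering peptide, was at 33140 and 25983 CPM (0.35, 0.31 to 0.39), and *Vim* had 549 and 263 UMIs (0.59, 0.38 to 0.81). *Arpc2*, *Pfn1* and *Dock2*, which drive actin assembly and DC motility, had log2 ratios of -0.63 (-0.88 to -0.39), -0.49 (-0.69 to -0.29) and -0.73 (-1.23 to -0.24). Of 11 genes of the cytokine receptor list 1 was higher and 0 lower, with a median of -0.01, the higher gene being *Il1rn*, which encodes a secreted antagonist of the IL-1 receptor and no receptor, with 82 and 37 UMIs (0.67, 0.10 to 1.28). *Il2ra* had 78 and 67 UMIs (-0.25, -0.74 to 0.25). Of 25 measured mature DC genes outside the rule, 3 were higher (*Ccl17*, *Epsti1* and *H2-M2*) and 4 lower, with a median of 0.01. *H2-M2* was found in only 10 control and 6 NK cell-depleted cells, with 30% and 50% of its UMIs in 1 cell of each library. The lower genes were *Cd83*, at 1290 and 1976 CPM (-0.61, -0.79 to -0.44), *Tmem123*, *Cd200* and *Gadd45b*. Of 5 general DC genes 1 was lower, *Flt3*, the receptor of the DC growth factor FLT3L, with 81 and 88 UMIs (-0.59, -1.04 to -0.13), and the median was -0.27. Of 5 cDC2 markers 1 was lower, *Mgl2*, with a median of 0.15. Cell cycle and pattern recognition genes had 1 measured gene each, *Hmgb2* and *Tmem173*, both with intervals that included 0.

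The genes furthest apart in either direction were listed by a fixed rule, which left out genes of the cell definition and asked that the interval exclude 0 also without the cell of most UMIs in each library. On the control side stood *Mmp12*, *Lyz2*, *Eno1*, *Adam23*, *Txn1*, *Txndc17*, *H2-M2*, *Pdlim4*, *Smarca5* and *Sept9*. *Adam23*, a surface disintegrin family member, had 120 UMIs in 28 of 65 cells and 21 in 11 of 50 cells, or 309 and 74.8 CPM (2.02, 1.37 to 2.79), and it was at or below 58.5 CPM in the other DCs. Of the 120 UMIs 25 lay in cells with other markers. *Txn1* (thioredoxin) had 162 UMIs in 51 cells and 41 in 21 cells (1.50, 1.01 to 2.05), and *Txndc17*, a related oxidoreductase, 146 and 37 (1.50, 0.98 to 2.08). With cells thinned to 2000 UMIs *Txndc17* was at 0.55. *Mmp12* (macrophage elastase) had 61 UMIs in 4 cells and 5 in 3 cells and was at 1.83 when 2 of 8 listed genes were asked for, and *Lyz2* (lysozyme) had 72 and 7 UMIs, with 61.1% of the 72 in 1 cell and 47 of them in cells with other markers. Of these genes *Txn1* alone also had an interval above 0 in both cDC1 cells (0.68, 0.39 to 0.97) and cDC2 cells (0.53, 0.04 to 1.001). The interval also lay above 0 for *Mmp12* in cDC1 cells (2.05) and for *Eno1* and *Adam23* in cDC2 cells (0.99 and 2.33). It lay below 0 for *Lyz2* and *Sept9* in cDC1 cells and for *Mmp12* and *Lyz2* in cDC2 cells.

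On the other side stood *Glipr1*, *Dusp2*, *Arf2*, *Got1*, *Trpm7*, *Rrad*, *Nr4a2*, *Osgin2*, *Ets2* and *Trim25*. *Glipr1* had 12 UMIs in 9 control cells and 44 in 21 NK cell-depleted cells (-2.30, -3.40 to -1.40). *Dusp2*, another MAP kinase phosphatase, had 43 and 102 UMIs, each in 22 cells (-1.70, -2.26 to -1.19). *Got1* (aspartate aminotransferase) had 46 and 95 in 29 and 34 cells (-1.51, -2.05 to -0.99), and *Nr4a2* 75 and 143 in 27 and 29 cells. Of the 10 genes, *Dusp2* and *Nr4a2* also had an interval below 0 in both cDC1 and cDC2 cells.

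**Figure D5:**
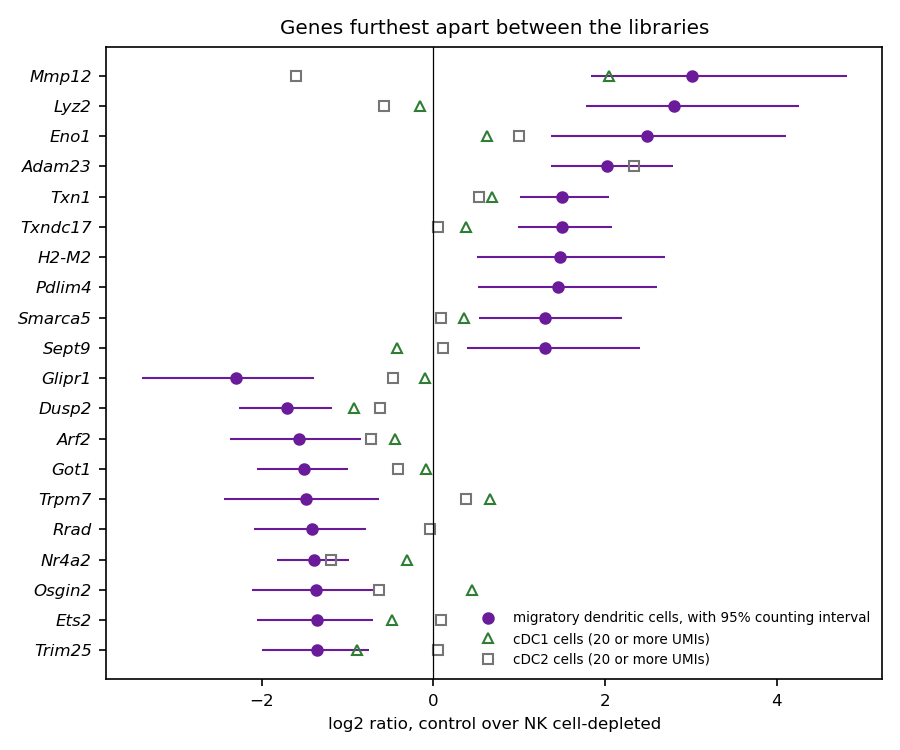
Log2 ratio of control over NK cell-depleted (horizontal axis) of the 10 genes highest and the 10 lowest in control in migratory DCs (circles, bars are 95% counting intervals), beside the ratio in cDC1 cells (triangles) and cDC2 cells (squares) where these held at least 20 UMIs. *Mmp12* was at 3.02 in migratory DCs, at 2.05 in cDC1 cells and at -1.60 in cDC2 cells, and *Dusp2* and *Nr4a2* were below 0 in all 3 sets.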

How the data were processed

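The deposited files hold UMI counts by gene and cell for both libraries, which the authors produced with Cell Ranger, and list called cells only. The file headers name Cell Ranger 3.0.2, the study's methods name another release, and the submitters' processing notes name build mm10. A further deposited table of log2 normalized values was not used here. The matrices list 31053 genes, and of 35 symbols listed more than once the first entry was used. Some genes of the lists count in the list values but are not reported here by name. Groups were taken from the sample titles.

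Cells were filtered on the limits given in the report. UMIs of the cells of a set were summed per library and expressed per 1000000 UMIs (CPM). Sums carry exact Poisson intervals, shares exact Clopper-Pearson intervals and ratios exact conditional binomial intervals, all at 95%. Log2 ratios had 0.5 UMI added to each sum before division by the totals of the libraries, which differ. Ratios of low genes are therefore drawn toward a value set by these totals and not toward 0. With 0 UMIs in both libraries this value was 0.62 in cDC1 and 0.99 in cDC2 cells. List medians in other cell sets used the genes measured in migratory DCs, also where those sets held few UMIs. A gene was measured with at least 50 UMIs over both libraries. Where a sum was 0, its upper limit was set at 3 counts. The precision follows from 388264 and 280915 UMIs in the migratory DCs. Doublets were not called, and cells with markers of other cells were left out as an alternative instead. Named genes were the 10 largest log2 ratios each way among genes that were not mitochondrial, ribosomal or predicted genes, with genes that had over 50% of their control UMIs in NK cells set apart, and the 15 highest and 10 lowest genes against other DCs (at least 100 UMIs, ranked by the ratio closest to 1). Genes of the lists with at least 20 UMIs were named within their list. The cells and the 34 gene lists were chosen with earlier results of these data known. The ratio and interval code was tested on simulated data. Python 3.11.15, numpy 2.4.6, scipy 1.17.1, pandas 2.3.3 and matplotlib 3.10.9 were used.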

Additional observations from a re-analysis of the deposited data

Results flagged for a closer look

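In some genes the counting interval lay on one side of 0 in migratory DCs and on the other side in cDC1 or cDC2 cells of the same libraries. With 1 library per group the difference between these log2 ratios of control over NK cell-depleted was not tested, and no explanation was weighed. *Irf8* was at 0.80 in migratory DCs (454 and 188 UMIs) and at -0.29 in cDC1 cells (677 and 1273 UMIs). *Vim* was at 0.59 and at -0.17 in cDC1 cells. *Sept9* was at 1.30 and at -0.43 in cDC1 cells. *Calr* was at 1.001 in migratory DCs and at -0.23 in cDC2 cells, and *Pgk1* at 0.48 and at -0.44 in cDC2 cells.

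Several such ratios rest on few cells. *Mgl2* was at -0.66 (63 and 72 UMIs), from 7 control and 4 NK cell-depleted cells, and at 0.96 in cDC1 cells (174 and 138 UMIs), and it was at -1.23 when 4 of 8 listed genes were asked for. *Lyz2* was at 2.81 in migratory DCs, at -0.15 in cDC1 cells and at -0.57 in cDC2 cells, with 47 of its 72 control UMIs in cells that held markers of other cells. *Mmp12* was at 3.02, from 4 control and 3 NK cell-depleted cells, and at -1.60 in cDC2 cells. In cDC1 cells it was at 2.05 (1.57 to 2.57, 130 and 48 UMIs), the same direction as in migratory DCs. *Cxcl2* was at 1.24, from 8 and 4 cells, and at -0.90 in cDC2 cells. *Ier3* was at 0.91 and at -0.81 in cDC2 cells. The part of the few cells in these values was not tested beyond leaving cells out.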

How the results depend on the processing

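No paired analysis was possible because each group has 1 library. The ratio of shares ran from 1.01 to 1.24 under its 5 alternatives, all within the interval of the reported value. Counts of genes at least 2-fold higher and lower in control moved to 106 and 129 when cells were thinned to 2000 UMIs, where fewer UMIs remain per gene, and to 170 and 169 of 4117 genes with a minimum of 20 UMIs, where more low genes enter. Of 162 recomputed list medians 161 stayed between the median lower and upper interval bounds of the list's genes, and MHC class II moved to -0.14 with no upper limit on UMIs or genes. Medians of the hypoxia and glycolysis list ran from 0.30 to 0.77 and those of the immediate early and heat shock list from -0.66 to -0.53. Of 2400 recomputed values of 300 single genes, 2275 stayed within the interval, 106 left it and 19 changed direction, from an interval that had excluded 0. Thinning, which draws at random, turned *Pvr* to 0.0239, *Cxcl10* to 0.95, *Nfkbie* to 0.0689, *Bst2* to -0.18 and *Ero1l* to -0.61. Asking for 2 of 8 listed genes turned *Cd209a* to -1.14, *Cxcl2* to -0.0708 and *Ero1l* to -0.86, and asking for 4 turned *S100a8* and *S100a9* to -0.53, *Il12b* to 0.48 and *Cxcl2* to -0.17. Without the cells with other markers, *Gzma*, *S100a8* and *S100a9* were at -0.37, *Cxcl2* at -0.48 and *Ier3* at -0.00273. The -0.37 of *Gzma*, *S100a8* and *S100a9* and the -0.53 of *S100a8* and *S100a9* are what equal UMI sums in both libraries give, because the totals differ. *Gzma* had 0 UMIs in NK cell-depleted migratory DCs. These values count among the 19, but no direction is read from them. Without the cell of most UMIs *Il12b* was at 0.0239, and with no upper limits *Il12b* was at 0.0269. Apart from the cells each alternative removes or adds, the cause was not tested. Counts of 65 and 50 cells limit precision, and a gene with 50 UMIs has wide intervals.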
